A study of Bos taurus with 9 samples.

Results

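Subcutaneous fat and back muscle of 1 cattle breed were compared across every probe set of a bovine expression array: 3 arrays of subcutaneous adipose tissue against 3 arrays of longissimus dorsi, the long skeletal muscle beside the spine. All came from Yan yellow cattle, from bulls aged 24 months that were kept alike, and the labels name no treatment. These 6 arrays are part of 9 in the study. The other 3, of abdominal adipose tissue, entered the fit to share its estimate of spread and to test whether a difference from muscle was as large in the second depot. The arrays were chosen by their tissue labels alone. The labels count 9 bulls without tying samples to animals, so a p-value here covers only how these samples vary, and 3 arrays a tissue limit the precision. Sample titles open with a number that recurs across tissues, and whether it marks an animal is not given. The extraction kit in the labels is one for lipid-rich tissue and is named for the adipose samples.

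A white adipocyte is built around 1 droplet of triacylglycerol. It makes fatty acids, esterifies them, releases them again by lipolysis when catecholamines raise cyclic AMP, and secretes hormones such as leptin and adiponectin. In ruminants, adipose tissue rather than liver is the main site of fatty acid synthesis, and acetate from the rumen is its main carbon source. A muscle fibre is filled with sarcomeres, in which myosin thick filaments pull on actin thin filaments anchored at the Z-disc when calcium leaves the sarcoplasmic reticulum. It renews its ATP from phosphocreatine, glycogen and a dense set of mitochondria. Both tissues also hold vessels, fibroblasts, nerves and immune cells, and muscle holds adipocytes between its fibres, which farmers know as marbling. In bulk tissue, fewer cells of a type and less RNA per cell cannot be told apart.

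Values are log2 of the deposited probe set intensity, and a difference is the subcutaneous mean minus the muscle mean on that scale, so that a positive value means a higher level in fat. A tissue mean under 6 is taken as near background, where the size of a difference is not exact. Array medians ran from 5.75 to 5.79 in muscle and from 5.87 to 5.92 in subcutaneous fat. Setting every array to the same median lowers each difference by about 0.12. For the actin controls on the array, 3' signal over 5' signal was 0.96 to 1.04 in muscle and 3.86 to 8.17 in subcutaneous fat, and that of GAPDH 0.94 to 1.01 against 1.21 to 1.74. That of the EF1a control was 0.278 to 0.354 against 0.529 to 0.65. These ratios, which bear on RNA integrity and labelling, were higher in fat and separate the tissues without overlap. Their part in the results was not tested.

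The labels were checked against defining genes. The summed intensity of 7 muscle genes was 63540 to 70600 on the muscle arrays and 1062 to 1355 on the fat arrays. That of 6 adipocyte genes was 27140 to 28300 in subcutaneous fat and 6700, 2978 and 5789 on muscle arrays 1, 2 and 3. Each tissue carried its own genes, and the muscle arrays carried adipocyte genes too, at unequal levels. FABP4, with a mean of 11.91 in muscle, made up most of the muscle sums of the adipocyte genes. Of the 6 genes 5 had a muscle mean of 6 or more. The array of muscle replicate 2 was the lowest.

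The tissues differed at nearly every second probe set. With limma, 11299 of 24016 passed at an adjusted p under 0.05, which is 47.0%, and on 54.3% the arrays of the tissues did not overlap. The 5913 higher in subcutaneous fat are 24.6% of all tested and the 5386 lower are 22.4%. Counting 1 probe set per gene, 56.8% of 9155 genes were called, 2789 higher (30.5%) and 2407 lower (26.3%), and the arrays of 63.0% did not overlap. These are the shares against which each gene group below is to be read. The median difference of all genes was -0.01. Of the calls, 52.3% were higher in fat, or 41.2% with the arrays set to 1 median. The large differences ran the other way from the counts: 126 called probe sets were lower in fat by at least 5 and 6 were higher by as much.

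**Figure D1:**
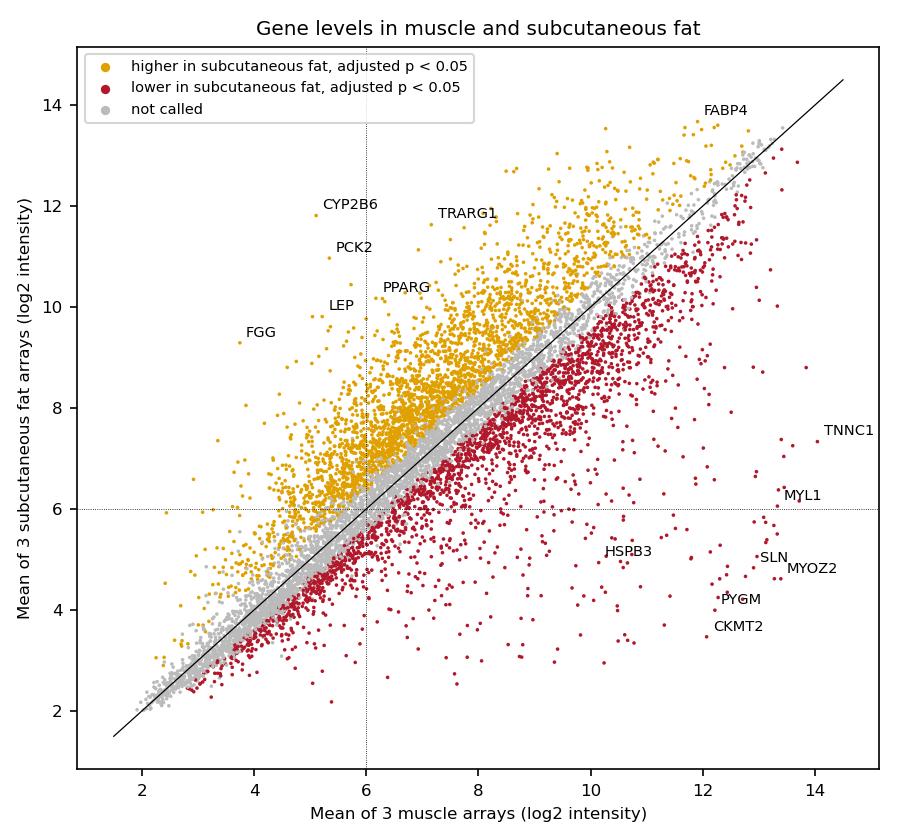
Mean log2 intensity of each of 9155 genes (1 probe set each) in muscle (horizontal) and subcutaneous fat (vertical), 3 arrays each. Yellow genes were higher and red genes lower in subcutaneous fat at an adjusted p of 0.05, grey ones were not called, the dotted lines mark the level of 6, and the red genes reach far further from the diagonal than the yellow ones.

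Among genes present in both tissues, those most raised in fat included several of lipid storage and handling. TRARG1, which helps return the glucose transporter GLUT4 to the cell surface, read 7.31, 6.003 and 8.17 in muscle and 11.84, 11.61 and 11.45 in subcutaneous fat. The 2 tissues did not overlap, which was a condition for every gene named by size, and the difference was 4.47 (SE 0.42, adjusted p = 2.33e-05). RBP4, the plasma carrier of retinol and an adipokine, read 8.86, 7.58 and 9.05 in muscle and 12.88, 12.43 and 12.76 in subcutaneous fat, with a difference of 4.20 (SE 0.33, adjusted p = 8.01e-06). ACSM1, an acyl-CoA synthetase for short and medium chains, differed by 4.20, the droplet-fusing protein CIDEC by 4.06 and THRSP, a lipogenic regulator, by 4.05. PPARG, the master transcription factor of adipocytes, read 6.19, 5.67 and 6.66 in muscle and 10.30, 9.91 and 10.31 in subcutaneous fat, and rose by 4.001 (SE 0.23, adjusted p = 1.23e-06). ECM1, a matrix protein, APOE, the lipoprotein ligand, GNAI1, an inhibitory G protein of the cyclic AMP pathway, and CFB, factor B of the alternative complement pathway, differed by 3.88, 3.83, 3.83 and 3.78. Hormone-sensitive lipase, LIPE, differed by 3.77, although another of its probe sets differed by 0.07, and S100G, a calcium-binding protein of the calbindin family, by 3.73.

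Several of the largest rises started from near background in muscle. CYP2B6, a cytochrome P450, read 4.60, 4.53 and 6.20 in muscle and 11.96, 11.20 and 12.28 in subcutaneous fat, the largest rise of any named gene at 6.70 (SE 0.45, adjusted p = 2.75e-06). Muscle replicate 3 was the highest of the muscle arrays at 6.20, still far below every fat array. PCK2, the mitochondrial phosphoenolpyruvate carboxykinase, read 5.25, 4.74 and 6.03 in muscle and 11.37, 10.85 and 10.69 in subcutaneous fat, a difference of 5.63 (SE 0.30, adjusted p = 7.76e-07). FGG, the gamma chain of fibrinogen, read 4.12, 3.51 and 3.61 in muscle and 9.51, 9.31 and 9.06 in subcutaneous fat. The groups were over 4 units apart at the nearest arrays. QPRT, an enzyme of NAD synthesis from quinolinate, differed by 4.77, CD5L, a protein secreted by macrophages, by 4.71, and ELOVL6, an elongase of long-chain fatty acids, by 4.25. Leptin (LEP), the hormone that reports fat mass to the brain, read 5.49, 4.77 and 5.39 in muscle and 10.16, 9.21 and 10.06 in subcutaneous fat, and was higher by 4.60 (SE 0.34, adjusted p = 4.93e-06).

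Genes of the sarcomere and of the energy supply of muscle were among those most reduced in fat. MYOZ2, the calsarcin of slow fibres, read 13.44, 13.27 and 13.47 in muscle and 4.62, 4.70 and 4.54 in subcutaneous fat, a difference of -8.77 (SE 0.66, adjusted p = 5.66e-06), the largest of any gene named here. Its SE takes in the spread of the abdominal arrays, an SD of 1.76 against 0.11 in muscle and 0.08 in subcutaneous fat. SMPX, a small muscle protein, differed by -8.66, KLHL41, which stabilises nebulin, by -8.50, and CKMT2, the mitochondrial creatine kinase, by -8.60. PYGM, the muscle glycogen phosphorylase whose loss causes McArdle disease, read 11.97, 12.38 and 12.30 in muscle and 4.27, 3.76 and 3.96 in subcutaneous fat, a difference of -8.22 (SE 0.20, adjusted p = 7.69e-09). NMRK2, a nicotinamide riboside kinase of muscle, and SLN, which restrains the calcium pump, differed by -8.09 and -8.07. For all of these the fat arrays were near background. Where fat still had a level of 6 or more, the largest falls were those of TPM2 (-7.56, its other probe set -4.05), MYL1 (-7.27), MYH7 (-7.02), TNNT1 (-6.97), TNNC1 (-6.71), MYL2 (-6.40) and TCAP (-6.35), all parts of the sarcomere. Beside them stood CA3, the carbonic anhydrase of slow muscle (-6.29), TUBA4A, a tubulin (-6.22), and myoglobin, the oxygen store. Myoglobin (MB) read 13.37, 13.42 and 13.41 in muscle and 7.29, 7.42 and 7.43 in subcutaneous fat, a difference of -6.02 (SE 0.43, adjusted p = 4.19e-06). SYNPO, an actin-binding protein, fell by 5.38 on 1 probe set and differed by 1.66 on the other, so that its direction depends on the probe set.

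**Figure D2:**
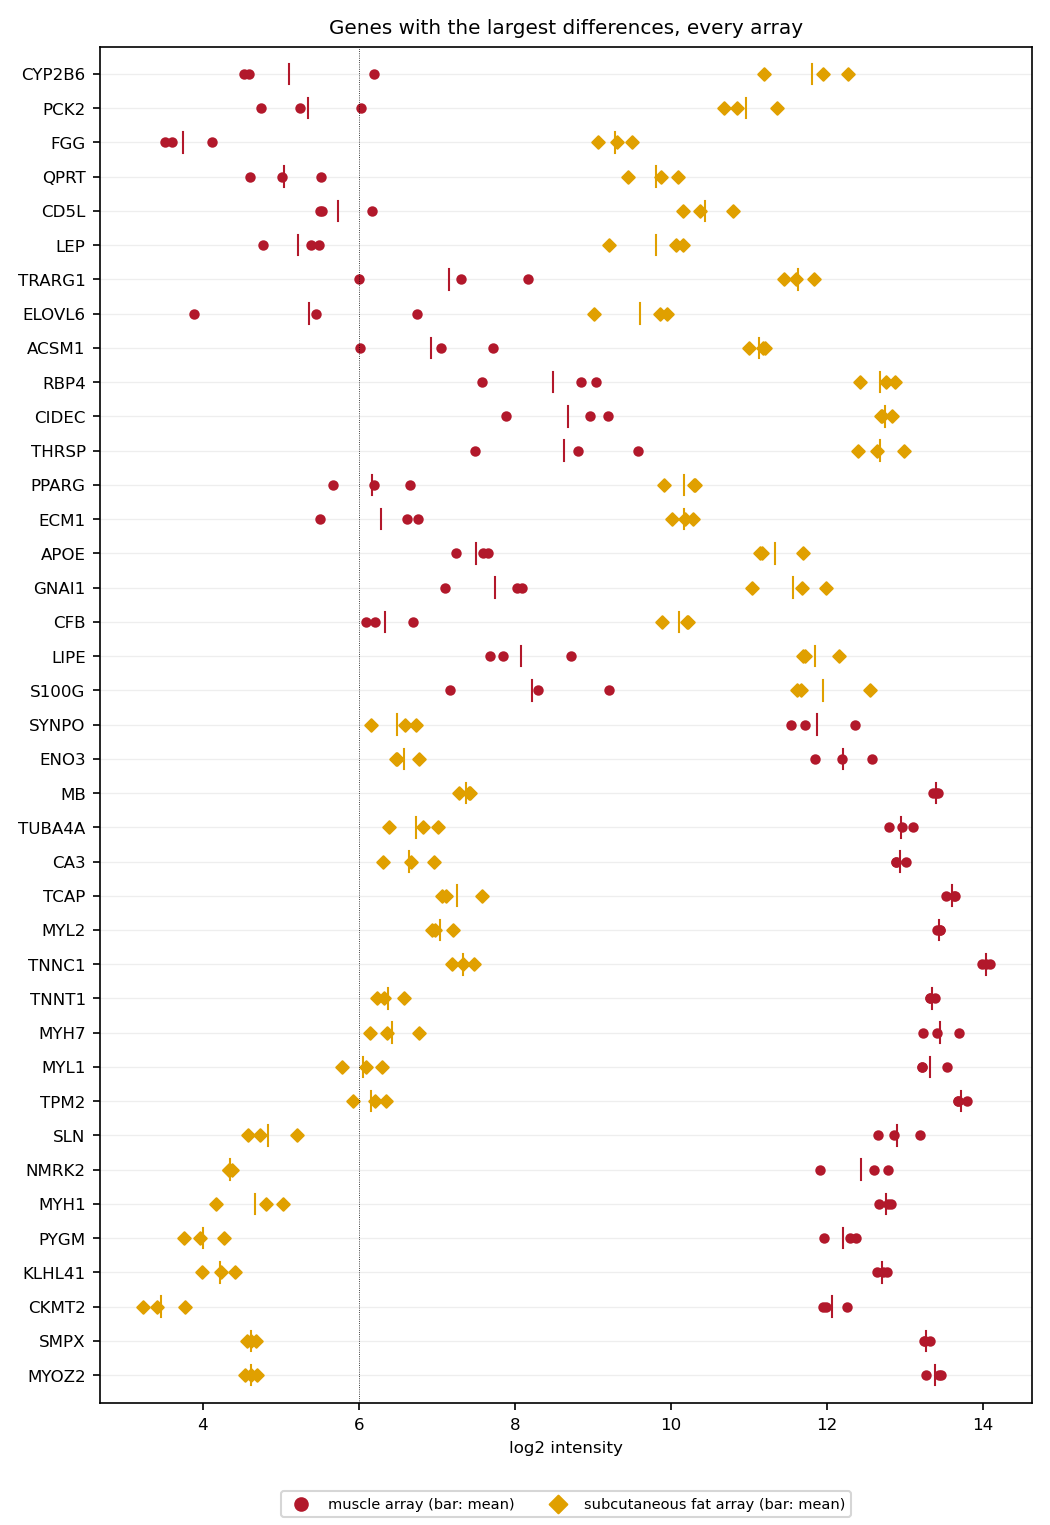
Log2 intensity of the genes named for the size of their difference, with 1 circle per muscle array, 1 diamond per subcutaneous fat array and a bar at each mean; the dotted line marks 6. Genes were shown only if the arrays of the 2 tissues did not overlap, so the separation was set by the choice of genes. Adipocyte genes such as ELOVL6 and TRARG1 spread more among the muscle arrays than sarcomere genes do.

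Nearly every sarcomere gene measured was lower in fat. All 10 measured thick filament genes were lower, with a median difference of -7.14, as were all 17 of the Z-disc (median -5.90), beside 26.3% of all genes. MYH1, a fast myosin heavy chain, differed by -8.10, while the other probe sets that carry its name ranged from -8.33 to 0.09. For MYH7, the slow heavy chain, the brightest probe set in muscle differed by -7.02 and the other 2 by 0.01 and 0.45. Myosin heavy chains are near-identical neighbours, and how far these probe sets cross-hybridise was not tested. Of 14 thin filament genes 12 were lower (median -6.84), among them the fast troponins TNNC2 (-7.82), TNNI2 (-7.73) and TNNT3 (-7.68). TPM1 and TPM3, tropomyosins that other cells also make, were the 2 that rose, by 2.23 and 1.36.

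The machinery that couples the nerve to the sarcomere followed with smaller falls. Of 10 genes of calcium release and uptake 7 were lower (median -4.65). Among these, ATP2A1, the calcium pump of fast fibres, read 10.10, 10.96 and 10.42 in muscle and 3.51, 3.38 and 3.27 in subcutaneous fat, a difference of -7.11 (SE 0.23, adjusted p = 2.7e-08). JPH1, a junctophilin of the triad, and STAC3, a partner of the calcium channel, differed by -7.14 and -7.10. ASPH was higher by 1.75, and CACNB1, a channel subunit, by 2.35 on a probe set that the other 2 of the gene contradict, at -5.66 and -1.13. Of 10 junction genes 7 fell, including the acetylcholine receptor subunits CHRNA1 (-3.46), CHRNB1 (-2.68), CHRND (-2.46) and CHRNG (-2.26), and none rose. Of 8 myogenic factors 7 were lower (median -1.83), led by MYF6 (-6.76), myostatin (MSTN, -3.20), a brake on muscle growth, and myogenin (MYOG, -2.71). The list of the dystrophin complex and fibre membrane, which also holds the intermediate filament desmin, was mixed. In it 6 of 9 fell, led by desmin (DES, -4.36) and the sarcoglycan SGCA (-3.51), and 2 rose. Of these 2, SGCE, a sarcoglycan found outside muscle too, rose by 1.43. The number that rose was 1 without muscle replicate 1, muscle replicate 2 or subcutaneous replicate 1.

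Most respiratory chain genes were lower in fat, with smaller median differences than those of the sarcomere lists. In complex I, 36 of 37 measured genes fell, none rose, and the median difference was -1.33. NDUFA5, the subunit with the largest fall on the probe sets used, read 11.17, 11.09 and 10.54 in muscle and 8.21, 8.27 and 8.64 in subcutaneous fat, a difference of -2.56 (SE 0.18, adjusted p = 4.47e-06). Its other probe sets differed by -1.43 and -0.69, less than NDUFC1 (-2.25) and NDUFB5 (-2.12). The groups did not overlap, and both tissues were well above background. Of 13 genes of complexes II and III 10 fell (median -0.97), led by UQCRQ (-2.02) and UQCRC2 (-1.85). Of 21 genes of ATP synthase and the nucleotide carriers 17 fell (median -0.72), with ATP5MC1 at -2.39.

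Complex IV was not uniform. Of its 13 measured genes 8 fell and 3 rose (median -0.54). The falls were led by the heart and muscle forms COX6A2, at -5.60, COX8B, at -5.26, and COX7A1, at -3.59. The other probe set of COX8B differed by only -0.47. COX8A, the form of most tissues, read 10.13, 9.66 and 9.96 in muscle and 11.87, 12.03 and 12.001 in subcutaneous fat, a rise of 2.05 (SE 0.14, adjusted p = 3.39e-06), and COX7A2 rose by 0.75. COX6A1 rose by 2.81 on its brighter probe set, and its other probe set differed by -1.97. The adenine nucleotide carriers divided likewise, with SLC25A4 at -2.57 and SLC25A5 and SLC25A6 at 1.91 and 1.94.

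Upstream of the chain, 16 of 22 genes of pyruvate dehydrogenase and the citrate cycle fell (median -0.96), among them SUCLA2 (-1.66), PDHX (-1.54) and PDHB (-1.47). The largest fall was that of IDH2, the mitochondrial NADP-linked isocitrate dehydrogenase, which read 11.42, 11.50 and 11.61 in muscle and 7.67, 8.08 and 8.24 in subcutaneous fat, a difference of -3.51 (SE 0.17, adjusted p = 3.2e-07). The 3 that rose were pyruvate carboxylase (PC, 2.82, its other probe sets -0.48 and -0.34), the cytosolic aconitase ACO1, and IDH1, the cytosolic counterpart of IDH2. IDH1 differed by 3.15, with other probe sets from -1.24 to 3.39. Of 19 genes of mitochondrial biogenesis, import and shape 14 fell. PPARGC1A, the coactivator that drives mitochondrial biogenesis, read 6.83, 7.79 and 8.57 in muscle and 4.32, 4.80 and 4.52 in subcutaneous fat, a difference of -3.18 (SE 0.36, adjusted p = 7.31e-05), and MFN2, a fusion protein, differed by -1.60.

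**Figure D3:**
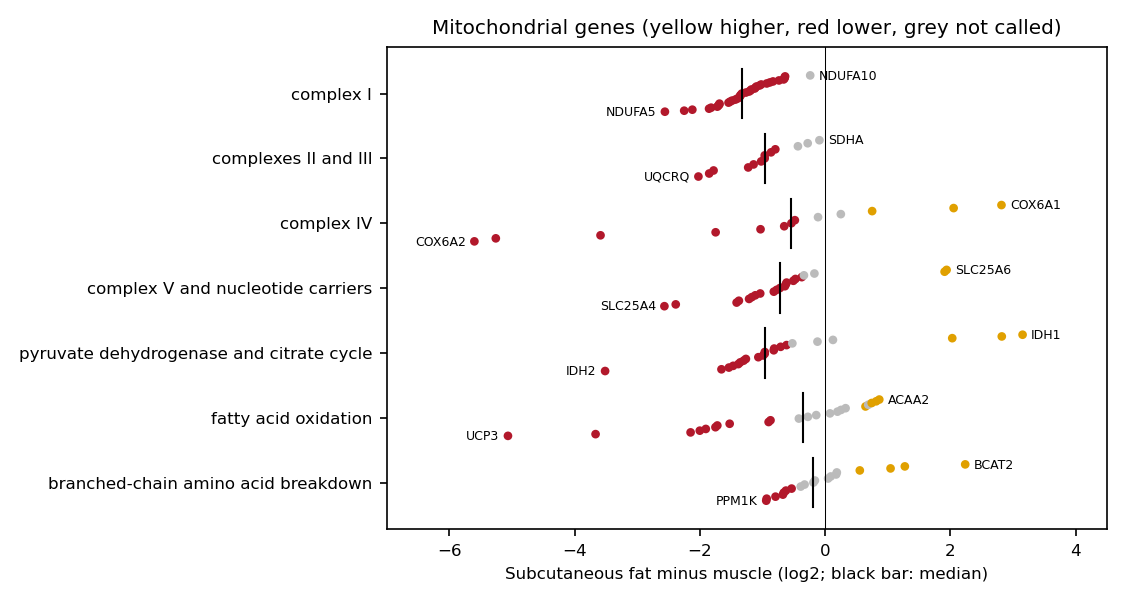
Difference (log2, subcutaneous fat minus muscle) of every measured gene of 7 mitochondrial lists, 1 point per gene, yellow for called higher, red for called lower, grey for not called, with a black bar at each median and the lowest and highest gene labelled. The medians run from -1.33 for complex I to -0.19 for branched-chain amino acid breakdown, and complex IV spans from -5.60 to 2.81.

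Fatty acid oxidation genes were divided. Of 22 measured genes 10 fell, 4 rose and 8 did not pass the test (median -0.35), and without muscle replicate 2 the number that rose was 7. UCP3, an uncoupling-protein family member of muscle, CPT1B, the muscle gate for fatty acids into mitochondria, SLC22A5, the carnitine transporter, and MLYCD, which removes the CPT1 inhibitor malonyl-CoA, differed by -5.07, -3.67, -2.15 and -2.002. Within the spiral the enzymes went both ways. ACADM and ACADVL, acyl-CoA dehydrogenases of its first step, and ECI2, an isomerase for unsaturated chains, fell by 1.91, 1.75 and 1.52, and HADHA, HADHB and HADH did not pass. These 6 were named after their values were seen. ACAA2 and ECHS1 were higher in fat by 0.86 and 0.81. In branched-chain amino acid breakdown 7 of 19 fell and 4 rose (median -0.19). BCAT2, the mitochondrial transaminase, rose by 2.24 (its other probe set -0.20) and MCCC1, a subunit of the leucine pathway, by 1.27, while HIBCH and DBT fell by 0.93 and 0.68. Handling of ketone bodies and short-chain acids was split. BDH1, the mitochondrial ketone dehydrogenase, and ACSS1, the mitochondrial acetyl-CoA synthetase, differed by -4.80 and -2.38. The cytosolic ACSS2, which turns acetate into acetyl-CoA for lipid synthesis, read 8.79, 8.46 and 9.67 in muscle and 12.08, 11.13 and 12.03 in subcutaneous fat, a rise of 2.77 (SE 0.37, adjusted p = 0.000201). Over the list, 3 of 6 fell and 2 rose, with a median of -0.42.

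Glycolysis, glycogen and phosphagen genes were divided between the tissues. Of 24 glycolytic genes 11 fell and 7 rose, of 11 glycogen genes 5 fell and 3 rose, and of 20 phosphagen and purine genes 8 fell and 7 rose. The medians were -0.29, -0.26 and -0.34. PFKM, the muscle phosphofructokinase, read 11.51, 11.87 and 11.57 in muscle and 7.22, 6.75 and 7.13 in subcutaneous fat, and PFKP, the platelet form, read 5.87, 5.32 and 5.96 in muscle and 8.36, 8.57 and 8.12 in subcutaneous fat. The first fell by 4.62 and the second rose by 2.63, each without overlap. In the glycogen list PPP1R3C and PGM1 fell by 1.65 and 1.63. GAMT, the last enzyme of creatine synthesis, fell by 2.75 and AMPD2, an AMP deaminase, rose by 2.04.

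Such pairs were followed through a list of 34 genes of muscle matched with a form of wider expression, 24 of which had both members measured. In 20 the muscle form fell and the other rose. Some carried very large differences: PYGM against PYGL, the liver phosphorylase (-8.22 and 1.81), FABP3 against FABP4 (-7.79 and 1.76), PGAM2 against PGAM1 (-6.77 and 2.21), TMOD4 against TMOD3 (-7.03 and 1.84), FBP2 against FBP1 (-5.91 and 2.11) and EEF1A2 against EEF1A1, the translation factor (-5.48 and 0.68). The same held for the droplet proteins PLIN5 and PLIN2 (-2.97 and 2.94) and for acetyl-CoA carboxylase. ACACB, which makes malonyl-CoA at the mitochondrion, differed by -3.32, and ACACA, which makes it for synthesis, by 1.87. For creatine kinase, CKM differed by -7.59 on the probe set brighter in muscle and by 1.18 on the other, and CKB, the brain form, by 3.57. ACTN1 rose by 1.74 against ACTN2 at -6.98, but the other ACTN1 probe sets differed by -0.61 and -0.03.

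In none of the remaining pairs did the muscle form fall while the other rose. SLC2A4, the insulin-responsive glucose transporter GLUT4, fell by 2.03, and SLC2A1 differed by -0.24 (95% interval -0.78 to 0.29, adjusted p = 0.437), or by 0.08 without muscle replicate 3. MYL1 fell beside MYL6, whose difference of 0.04 had an interval of -0.32 to 0.40 and turned to -0.08 with the arrays set to 1 median. FHL1 and FHL2, both LIM proteins, were lower by 0.82 and 0.73. That of FHL2 was lost without any of 4 of the arrays in turn, with adjusted p from 0.0523 to 0.136. Neither catalytic subunit of AMP kinase passed, PRKAA2 at 0.84 (adjusted p = 0.0606, near background in both tissues) and PRKAA1 at -0.42 (adjusted p = 0.184).

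**Figure D4:**
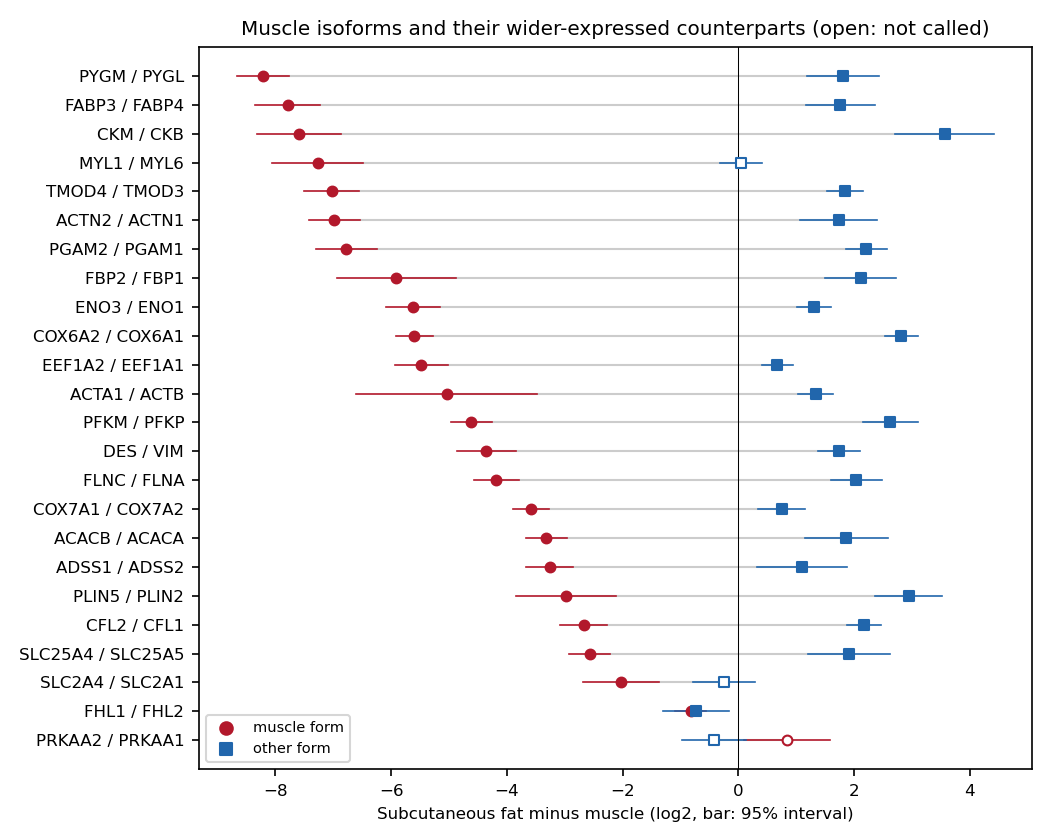
Difference (log2, subcutaneous fat minus muscle) with its 95% interval for the 24 pairs with both forms measured, circles for the muscle form, squares for the other, open where not called. In 20 pairs the circle lies left of 0 and the square right of it.

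Most genes of fatty acid synthesis were raised. Of 20 measured genes 15 rose and 3 fell, and the median difference of 2.36 was the highest of the 63 lists on the values as deposited, beside -0.01 for all genes and 30.5% of all genes called higher. Fatty acid synthase (FASN) read 9.11, 8.50 and 10.14 in muscle and 13.07, 12.63 and 12.50 in subcutaneous fat, a difference of 3.48 (SE 0.40, adjusted p = 7.87e-05). The groups did not overlap, and muscle replicate 2 was the lowest array. TKT, transketolase of the pentose phosphate pathway, which supplies NADPH, rose by 3.41. SCD5, a second desaturase, went the other way, at -3.28. Among the transcription factors of the adipogenic list 8 of 16 rose and 3 fell (median 0.58). The difference of PPARG was larger than those of CEBPA (1.56), KLF4 (1.68) and RXRA (1.31), whereas STAT5B and KLF15 fell by 1.56 and 0.70.

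Triacylglycerol synthesis was mixed gene by gene: 8 of 18 rose and 6 fell (median 0.33). At each acylation step some enzyme was higher in fat. GPAM, a first-step acyltransferase, rose by 2.33, AGPAT2, of the second step, by 2.92, and DGAT2, of the last, read 9.42, 9.22 and 9.57 in muscle and 13.18, 12.73 and 13.21 in subcutaneous fat, a rise of 3.64 (SE 0.16, adjusted p = 2.02e-07). AGPAT5, a mitochondrial member, and glycerol kinase (GK) fell by 2.46 and 2.22. Droplet and lipolysis genes moved more evenly, with 14 of 16 higher and 1 lower (median 2.02). G0S2, which inhibits the lipase ATGL, read 8.37, 7.77 and 8.82 in muscle and 11.35, 11.71 and 12.02 in subcutaneous fat, a rise of 3.37 (SE 0.30, adjusted p = 1.73e-05), and CIDEA rose by 3.04.

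Above the lipases, several G proteins and cyclases of the cyclic AMP pathway were higher in fat. Of 18 measured genes 8 rose and 2 fell (median 0.21). The number that fell was 5 without muscle replicate 3, 1 without subcutaneous replicate 3, 4 with the arrays set to 1 median and 1 after quantile normalization. GNAI1 read 8.10, 7.11 and 8.03 in muscle and 11.99, 11.68 and 11.04 in subcutaneous fat, a difference of 3.83 (SE 0.31, adjusted p = 9.06e-06), and GNAI2 rose by 1.87. The cyclases ADCY6 and ADCY4 rose by 2.15 and 1.55, while PRKACA, the catalytic subunit of protein kinase A, fell by 0.96. ADRB3, the adipocyte beta receptor, was chosen for mention after its values were seen, read 6.78, 6.64 and 6.22 in muscle and 6.23, 6.31 and 6.40 in subcutaneous fat, and did not pass (difference -0.23, adjusted p = 0.253). The direction of the list's median depends on the probe sets, being -0.02 where all probe sets of a gene are averaged.

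In the insulin pathway 8 of 19 genes rose and 5 fell (median 0.48), beside 30.5% and 26.3% of all genes, so that the falls were near the general share. PIK3R1, the regulatory subunit of PI3-kinase, rose by 1.42, GSK3B by 1.32 and SHC1 by 1.27, and GRB10, an adaptor that restrains the receptor, fell by 3.09. Fatty acid uptake showed 8 of 17 higher and 5 lower (median 0.45), the falls again near the share over all genes. The number lower was 3 without muscle replicate 2 or without any 1 subcutaneous array. FABP3, the muscle fatty acid carrier, read 13.17, 13.07 and 13.13 in muscle and 4.99, 5.68 and 5.34 in subcutaneous fat, and FABP4, the adipocyte carrier, read 12.46, 11.18 and 12.08 in muscle and 13.65, 13.71 and 13.66 in subcutaneous fat. FABP3 fell by 7.79. FABP4 was bright in both tissues and rose by 1.76 (SE 0.27, adjusted p = 0.000423). ACSL5 and ANGPTL4, which inhibits lipoprotein lipase, rose by 2.50 and 2.34, and VLDLR fell by 1.19.

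The secreted factors of fat were mostly raised. Of 17 measured adipokines 11 rose and 4 fell (median 1.80), the second number being 2 without subcutaneous replicate 1. Adiponectin (ADIPOQ), the insulin-sensitising hormone, read 7.85, 6.86 and 8.20 in muscle and 10.55, 11.07 and 10.87 in subcutaneous fat, a difference of 3.19 (SE 0.29, adjusted p = 1.91e-05). The muscle arrays spread over more than 1 unit, with replicate 2 lowest, and still lay below every fat array. Adrenomedullin (ADM), a vasodilator, rose by 2.56. NAMPT fell by 0.88 on 1 probe set and differed by 0.66 on the other. In cholesterol metabolism 12 of 21 rose and 5 fell (median 0.97). Risers included the lysosomal exporters NPC2 (1.91) and NPC1 (1.87) and HMGCS1 (1.67) of early synthesis, and TM7SF2 and FDFT1 of the later pathway fell by 1.76 and 1.36. Retinoid and steroid genes had a median of -0.07, with 6 of 20 higher, among them HSD17B4 (1.68), DHRS3 (1.15) and ALDH1A1 (1.13), and 5 lower, led by CRABP1 (-1.89) and HSD17B8 (-1.81). Both counts are near the shares over all genes (30.5% higher, 26.3% lower). The number lower was 3 without any 1 of 7 arrays, all but muscle replicate 3 and subcutaneous replicate 3.

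Brown adipocytes burn fat through UCP1, so their markers were checked. UCP1 was near background on all 6 arrays: it read 3.22, 3.79 and 3.22 in muscle and 3.13, 3.30 and 3.22 in subcutaneous fat, and did not pass (difference -0.20, adjusted p = 0.793). It was singled out after its values were seen. Of the 6 measured genes of the brown and beige list 3 fell and 2 rose. Those that fell, COX8B (on 1 of its 2 probe sets far more than on the other), CPT1B and PPARGC1A, are also muscle genes, and those that rose were CIDEA and CKB, so that the median of -1.69 mixes both.

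How much of each adipocyte gene the muscle arrays held varied between them. Over the 96 genes of the lipid lists that were higher in fat, the median level was 7.83, 7.54 and 8.05 on muscle arrays 1, 2 and 3, and 10.12, 9.84 and 10.08 on the subcutaneous arrays. Replicate 2 was the lowest muscle array for 58 of these genes, and replicate 3 for 14. The same array was lowest for 64 of the 77 raised genes of caveolae, matrix and cytoskeleton. Of 65 muscle genes that were lower in fat, replicates 1, 2 and 3 were lowest for 25, 20 and 20 and highest for 14, 26 and 25. Their median levels on these arrays were 11.145, 11.298 and 11.432. Of 39 genes of the lipid lists that were lower in fat, replicate 2 was the highest muscle array for 24. The part of adipocytes within the muscle samples in these differences was not tested.

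Most measured genes of caveolae, basement membrane and matrix were higher in fat. Of 10 genes of caveolae, the membrane pits in which adipocytes abound, 8 rose (median 1.93). EHD2, which stabilises the neck of the pit, read 7.63, 7.64 and 8.11 in muscle and 10.84, 10.86 and 10.71 in subcutaneous fat, a rise of 3.01 (SE 0.15, adjusted p = 3.82e-07). CAV2, CAVIN3 and CAV1 rose by 2.42, 2.20 and 2.07, and PACSIN3, the muscle form of an accessory protein, fell by 3.42. In the basement membrane 9 of 10 rose and none fell (median 2.0), including COL4A1 (2.59), LAMA4 (2.54) and NID1 (2.52). Fibrillar collagen and matrix genes showed 18 of 27 higher and 1 lower (median 1.18). TNXB, a tenascin that organises collagen, read 7.08, 6.18 and 7.61 in muscle and 10.72, 9.88 and 10.22 in subcutaneous fat, a rise of 3.32 (SE 0.45, adjusted p = 0.000204), and VCAN, COL5A2 and SPARC rose by 2.67, 2.49 and 2.47.

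Enzymes that process matrix rose in 21 of 28 cases, and none fell (median 1.69). They included the metalloproteinase inhibitors TIMP4 (3.12) and TIMP3 (2.91), the collagen cross-linker LOX (2.81) and the protease CTSK (2.56). The general cytoskeleton showed 21 of 27 higher and 1 lower (median 1.74), led by the calcium-binding S100A11 (2.83) and S100A4 (2.79). ACTN4 and ANXA1 rose by 2.71 and 2.54.

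Most measured markers of vessels and macrophages were higher in fat. Of 19 endothelial genes 16 rose and none fell (median 1.92). VWF, KDR and FLT1 did not pass, at -0.094, 0.515 and -0.187. Their summed intensity was 2210 to 2516 in muscle and 8642 to 10750 in fat. LYVE1, a marker of lymphatic vessels that some macrophages share, read 7.36, 6.07 and 6.67 in muscle and 9.36, 11.22 and 10.27 in subcutaneous fat, a rise of 3.59 (SE 0.51, adjusted p = 0.000303), and PECAM1, MMRN1 and ROBO4 rose by 2.83, 2.75 and 2.67. For macrophages 13 of 15 rose and none fell, or 1 without muscle replicate 3 (median 2.27), and the sum was 1377 to 3135 in muscle against 7688, 13490 and 12910 in subcutaneous replicates 1, 2 and 3. VSIG4, a complement receptor of resident macrophages, read 6.34, 5.32 and 5.14 in muscle and 10.20, 8.69 and 8.80 in subcutaneous fat, a rise of 3.63 (SE 0.50, adjusted p = 0.000235). CD68, CD14 and C1QA rose by 3.21, 2.83 and 2.70, and MS4A7 and ITGAM did not pass, at -0.117 and -0.304. Fibroblast and progenitor genes rose in 15 of 21 cases (median 1.32), with CCN5 at 3.33, FGF10 at 2.52, SFRP4 at 2.50 and CD34 at 2.16. The 1 that fell, DLK1, a preadipocyte factor, differed by -3.16 (SE 1.11, adjusted p = 0.0398, other probe set -1.64), and the call was lost without any 1 muscle or subcutaneous array, with adjusted p from 0.0742 to 0.103. The part of these cells in the differences of matrix, complement and immune genes was not tested.

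Other cell types gave weaker or divided readings. Pericyte and smooth muscle genes showed 5 of 12 higher, or 3 without muscle replicate 1, subcutaneous replicate 2 or subcutaneous replicate 3, and 2 lower (median 0.52). MCAM rose by 3.47 and MYH11 by 1.76, and SMTN fell by 2.06. Of 9 mast cell and granulocyte genes 6 rose and 1 fell (2 without abdominal replicate 1, muscle replicate 1 or muscle replicate 3) (median 0.84), with KIT at 2.40 and S100A8 at 2.51. Lymphocyte genes were near background in 15 of 17 cases in muscle and did not separate the tissues as a group: 3 rose, 1 fell, and the median was -0.09, or 0.07 after quantile normalization. Of 12 Schwann and nerve genes 4 fell and 1 rose (median -0.27, or 0.69 over the brighter members alone). UCHL1 and NEFM, a neurofilament, fell by 3.98 and 3.70, and MBP, of myelin, rose by 1.73.

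Blood, skin and serosa were checked as tissues that a sample could carry along. Erythroid genes were near background in fat without exception and in all but 1 case in muscle, and 3 of 7 fell (median -0.47, or -0.29 without muscle replicate 2). The number that fell was 1 without abdominal replicate 2, muscle replicate 2 or any 1 subcutaneous array. Skin genes had a median of 0.00, or -0.12 with the arrays set to 1 median, with 3 of 13 higher and 4 lower, the second number being 1 or 2 without any of 6 arrays. EPCAM, an epithelial adhesion molecule, nonetheless read 3.70, 4.40 and 4.46 in muscle and 7.58, 6.97 and 8.55 in subcutaneous fat, a rise of 3.51 (SE 0.38, adjusted p = 5.14e-05), and KRT5, a basal keratin, rose by 2.02. KRT14, the usual partner of KRT5, was looked at after that and did not pass, at 0.00. Of 6 mesothelial genes 1 rose and 1 fell, and both calls were lost when some arrays were left out: KRT19 (1.87) had an adjusted p up to 0.0581 without muscle replicate 1 or subcutaneous replicate 2, and KRT18 (-0.79) up to 0.0729 without muscle replicate 1 or subcutaneous replicate 1.

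Most complement and coagulation genes rose, and none fell. Of 30 measured 25 rose (median 2.18), beside 30.5% of all genes. C5, CFI, PLAU, PLAUR and FGB did not pass. FGB, the beta chain of fibrinogen, was at -0.197, beside FGG at 5.545. F13A1, the cross-linking subunit of factor XIII, which macrophages make, read 8.99, 7.44 and 8.51 in muscle and 11.66, 12.19 and 11.49 in subcutaneous fat, a rise of 3.47 (SE 0.38, adjusted p = 5.29e-05). CFB rose by 3.78 and PROS1, the anticoagulant protein S, by 3.07, with its other probe set at 0.29. Antigen presentation and interferon genes rose in 11 of 21 cases and none fell, or 2 without muscle replicate 3 (median 1.04). RSAD2, MX1, TAP2 and STAT2 rose by 2.58, 2.09, 2.18 and 1.65. Of 28 chemokine and cytokine genes 12 rose and 2 fell. Their median was 0.88, or 0.54 without subcutaneous replicate 2. CSF1, the macrophage growth factor, rose by 2.68 on 1 probe set, the other being at -0.32, and TNFRSF1A by 2.22. TNFRSF12A, the TWEAK receptor, and CXCL10 fell by 2.21 (other probe set -1.41) and 1.44.

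Notch, WNT and growth factor genes were more often higher than lower in fat. Of 8 Notch genes 7 rose and none fell (median 1.66), with MFNG at 2.04, DLL4, a ligand of endothelium, at 1.91 and JAG1 at 1.68. In the WNT pathway 11 of 19 rose and 2 fell (median 0.58). The receptor FZD4 rose by 3.45 (other probe set 0.00) and the secreted SFRP4 by 2.50. RSPO3, an amplifier of WNT, went down, reading 9.60, 8.46 and 10.20 in muscle and 8.24, 7.13 and 7.48 in subcutaneous fat, a difference of -1.81 (SE 0.46, adjusted p = 0.00902). Growth factors and receptors showed 15 of 32 higher and 3 lower (median 0.53). IGFBP4 rose by 2.72 and FGFR1 by 2.32, FGFR2 by 2.67 with other probe sets between -0.64 and -0.03, and MET, the receptor of hepatocyte growth factor, fell by 1.14.

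TGF-beta and BMP genes had no common direction: 7 of 30 rose, 6 fell (3 without subcutaneous replicate 1 or 3), and the median was 0.12, or 0.00 with the arrays set to 1 median. On the values as deposited both counts are below the shares over all genes (30.5% higher, 26.3% lower). BMP2, BMP7 and TGFBR2 rose by 2.46, 1.67 (other probe set 0.96) and 2.08, and BMP5 fell by 0.98. Positional factors rose in 9 of 16 cases and fell in 2 (median 0.49), the second number being 1 without muscle replicate 2, subcutaneous replicate 2 or subcutaneous replicate 3. HOXA9 read 3.85, 4.18 and 3.69 in muscle and 6.79, 6.45 and 6.85 in subcutaneous fat, a rise of 2.79 (SE 0.17, adjusted p = 1.36e-06), NR2F1 and NR2F2 rose by 3.03 and 1.83, and HOXA4 fell by 1.37. Of 9 clock genes 1 rose, PER2 by 1.15, and 3 fell, among them CRY1 and RORA by 1.0 and 0.90. Their median was 0.06, or -0.06 with the arrays set to 1 median.

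The genes that respond within minutes to handling and stress split. Of 23 measured 6 rose and 4 fell, both below the shares over all genes (30.5% and 26.3%). Their median was 0.05, or -0.07 with the arrays set to 1 median. ATF3 and NR4A2 fell by 1.67 and 1.48, and MYC, DNAJB1 and IER2 rose by 1.39, 1.38 and 1.52. EGR1 rose by 2.21 on 1 probe set and differed by -0.69 on the other. FOS, singled out after its values were seen, read 10.98, 11.11 and 11.47 in muscle and 10.69, 11.29 and 11.72 in subcutaneous fat, and did not pass, at 0.05 (95% interval -0.62 to 0.72).

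Protein breakdown divided by route. Ubiquitin ligases of muscle were lower in fat: TRIM54 at -5.71, ASB5 at -4.80, ASB2 at -4.49 and FBXO40 at -4.37. BNIP3L, a mitophagy receptor, rose by 1.84 and MAP1LC3A by 1.24. In all, 10 of 25 genes of ubiquitin ligases and autophagy fell and 5 rose (3 without muscle replicate 1, muscle replicate 2 or subcutaneous replicate 1), with a median of -0.23. The proteasome fell in 21 of 26 subunits and rose in none (median -0.64). PSMC6, an ATPase of its cap, read 10.90, 10.84 and 10.35 in muscle and 9.02, 9.20 and 9.07 in subcutaneous fat, a difference of -1.60 (SE 0.18, adjusted p = 5.85e-05). The lysosome moved the opposite way: 25 of 26 genes rose and none fell (median 1.29). MAN2B1, a mannosidase, read 4.62, 3.89 and 5.08 in muscle and 7.96, 7.69 and 8.02 in subcutaneous fat, a rise of 3.36 (SE 0.26, adjusted p = 6.54e-06), and CTSH rose by 2.56.

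Protein synthesis showed less. Of 45 ribosomal protein genes 37 did not pass, 5 rose (2 without subcutaneous replicate 2) and 3 fell. After quantile normalization 9 rose and 2 fell, and with the arrays set to 1 median 2 rose and 4 fell. The median was 0.07, or -0.06 with the arrays set to 1 median. RPL3 rose by 0.68 and RPS28 fell by 0.65. Ribosomal protein genes have many processed copies, and how far these add to the signals was not tested. Of 35 genes of folding and secretion 20 rose and 5 fell, or 3 without muscle replicate 2, subcutaneous replicate 1 or subcutaneous replicate 3 (median 0.80). SEC61A1, the protein-conducting channel, rose by 2.15 and PDIA3, a disulphide isomerase, by 1.85, and DNAJB9 fell by 0.85. Antioxidant genes were called about as often as all genes (30.5% higher, 26.3% lower). Of 30 measured 8 were higher (5 without subcutaneous replicate 3) and 9 lower (median 0.02, or -0.10 with the arrays set to 1 median). MGST1, a microsomal glutathione transferase, and the secreted GPX3 rose by 3.12 and 2.03. PRDX2 and the mitochondrial TXNRD2 fell by 0.98 and 1.05. Of 28 cell cycle genes 11 rose and 2 fell, or 1 without muscle replicate 1, muscle replicate 2, subcutaneous replicate 1 or subcutaneous replicate 3 (median 0.68). CDKN1C, an inhibitor of division, rose by 2.25 and CCND2 by 2.03.

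Genes often used as references for PCR were not all level between the tissues. Of 23 measured 9 were higher in fat and 2 lower, a smaller share called than over all genes (56.8%). With the arrays set to 1 median 7 were higher and 5 lower, and the median of 0.09 turned to -0.04. GAPDH read 13.38, 13.50 and 13.35 in muscle and 12.14, 12.59 and 12.24 in subcutaneous fat, a difference of -1.09 (SE 0.14, adjusted p = 0.000157), and ACTB had a mean of 11.60 in muscle and 12.94 in fat, without overlap, a rise of 1.34 (SE 0.14, adjusted p = 3.35e-05). MRPL39 fell by 1.21 and GUSB, YWHAZ and PPIB rose by 2.01, 1.26 and 1.66. Intervals within 0.5 of 0 on either side were looked for after the values were seen. They were those of RPLP0 (-0.36 to 0.20), RPS15A (-0.25 to 0.27), EIF2B2 (-0.31 to 0.48), RPS9 (-0.44 to 0.39), CLN3 (-0.10 to 0.41) and H3-3A (-0.21 to 0.25).

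**Figure D5:**
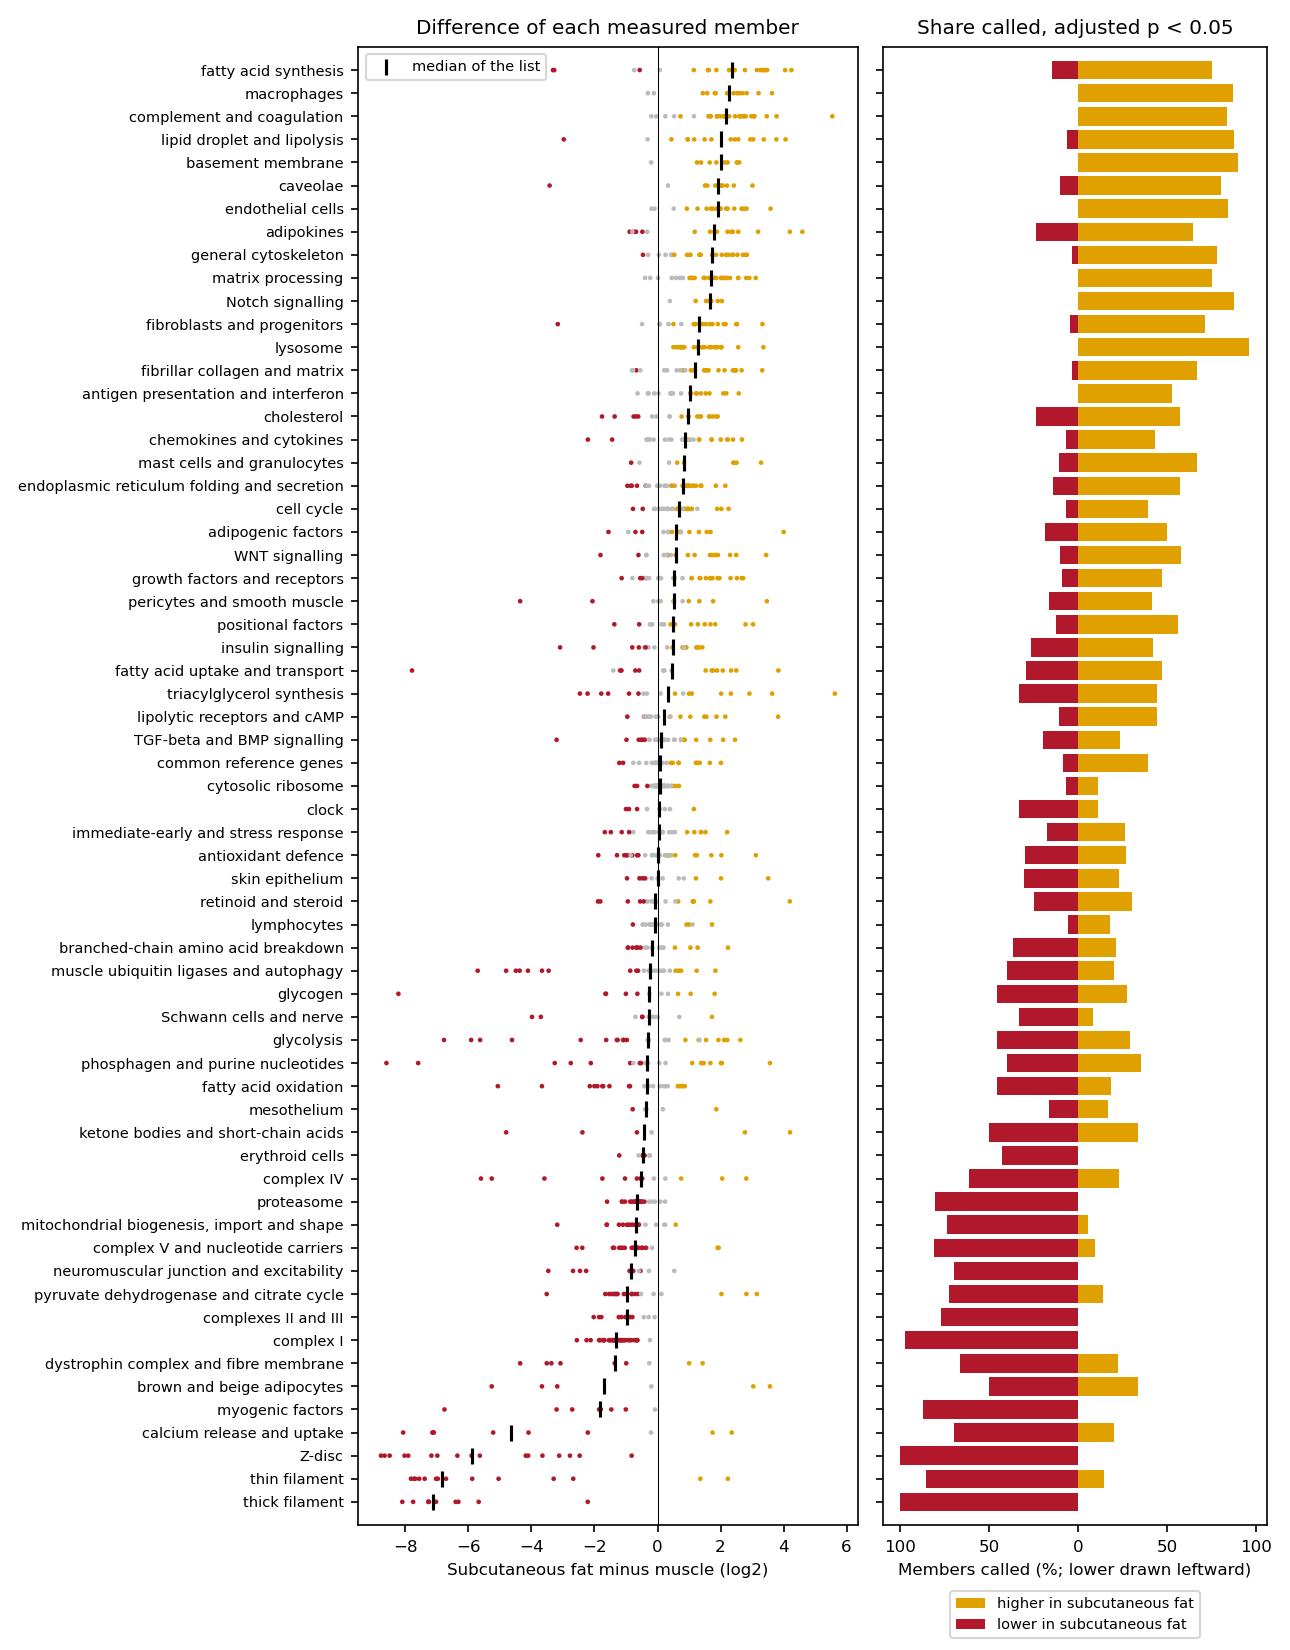
Left, difference (log2, subcutaneous fat minus muscle) of every measured member of 63 gene lists, with a bar at each median, yellow for called higher, red for called lower and grey for not called; right, the share of each list called. Lists run from thick filament (median -7.14) at the bottom to fatty acid synthesis (median 2.36) at the top, and some genes stand in more than 1 list.

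Whether a difference from muscle was as large in abdominal fat was tested as the difference between the depots, since both are set against the same muscle arrays. Of the 11299 probe sets called against muscle, 245 also differed between the depots, which is 1.02% of all 24016 tested. Over all tested, called against muscle or not, 314 (1.31%) differed between the depots. Among genes, 1.51% differed between the depots and 1.19% passed both tests. The count of 245 fell to 106 without muscle replicate 1, to 48, 71 and 66 without subcutaneous replicates 1, 2 and 3, and to 78, 49 and 48 without abdominal replicates 1, 2 and 3. CXCL14, IRX3, SELE and HSPB3 kept both calls with each of the 9 arrays left out. CXCL14, a chemokine, read 8.69, 8.24 and 8.66 in muscle and 10.48, 10.81 and 10.96 in subcutaneous fat, and 7.83, 5.30 and 6.53 in abdominal fat. Subcutaneous fat exceeded muscle by 2.22 (SE 0.50, adjusted p = 0.00455) and abdominal fat by 4.19 (SE 0.50, adjusted p = 0.00849). IRX3, a homeobox factor studied for its role in adipocytes, read 8.43, 8.38 and 8.79 in muscle and 10.49, 9.94 and 10.21 in subcutaneous fat, and 7.93, 7.80 and 7.97 in abdominal fat, below every muscle array. Its differences were 1.68 (SE 0.17, adjusted p = 3.43e-05) from muscle and 2.31 (SE 0.17, adjusted p = 0.00136) from abdominal fat. SELE, the selectin of activated endothelium, read 4.65, 4.62 and 4.22 in muscle and 6.79, 6.20 and 6.51 in subcutaneous fat, and 4.65, 3.85 and 4.16 in abdominal fat. It exceeded muscle by 2.002 (SE 0.23, adjusted p = 7.39e-05) and abdominal fat by 2.28 (SE 0.23, adjusted p = 0.00426). HSPB3, a small heat shock protein of muscle, read 10.48, 10.05 and 9.91 in muscle and 5.33, 5.18 and 4.31 in subcutaneous fat, and 8.91, 7.23 and 7.67 in abdominal fat, between the other tissues without overlap. It fell by 5.21 against muscle and by 2.997 against abdominal fat.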

How the data were processed

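Expression was measured on 1-colour Affymetrix bovine arrays, 3 per tissue, and the table the authors deposited gives a linear intensity for each probe set on each array. The authors used RMA, per the submitters' processing notes. Which version and options is not given in the sources used here. Because RMA usually writes log2 values and the plan assumed them, log2 of each deposited intensity was taken first. The 112 control probe sets were left out and 24016 of 24128 tested, with no filter on dim ones.

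With limma 3.58.1 in R 4.3.3, 1 mean per tissue was fitted over the 9 arrays (two-sided, Benjamini-Hochberg over 24016 probe sets, threshold 0.05), and an SE is the moderated standard error. Symbols came from the array annotation, updated by gene identifier: 13292 probe sets had 1 symbol, 86 several and 10638 none. They stand for 9155 genes. The probe set with the higher muscle or subcutaneous mean stood for a gene, a rule that treats the 2 tissues alike. The rule prefers probe sets bright in 1 tissue, and so can enlarge a difference and the contrast within an isoform pair. Other probe sets of a gene are given where they disagree, as for 236 genes. Tables and figures came from Python 3.11.15 with matplotlib 3.10.9, numpy 2.4.6 and pandas 2.3.3.

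The comparison, the 63 gene lists (1560 different genes, 1133 measured) and the isoform pairs were chosen with earlier results of these data known. Genes were named by size (12 in each direction with both means at 6 or more, 8 at any level), up to 4 and 2 passing members per list in its leading and other direction, the isoform pairs, and 6 in each direction that also differed between depots. Those named by size had to be called and to have arrays of the 2 tissues that did not overlap. Provisional symbols were left out. Alternatives covered scaling, filters, weights, the prior, the probe set of a gene, the threshold, a replicate block and leaving out each array. No 2 arrays held the same values. On simulated data with this spread, 200 of 24016 probe sets were changed and the rest had the same mean in every tissue. There, 5.8%, 60.6%, 93.6% and 99% of log2 differences of 0.5, 1, 2 and 4 were recovered, with 5.2% of calls false. The real comparison called 47.0% of probe sets, so these rates do not give its own recovery. No sequences or coordinates were used.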

Additional observations from a re-analysis of the deposited data

Results flagged for a closer look

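The difference of subcutaneous fat from muscle was itself different from that of abdominal fat, by the contrast between the depots in the limma fit, for 16 named genes. Differences here are subcutaneous minus abdominal fat, in log2. Higher in the subcutaneous depot were CXCL14 (4.19), CYP2B6 (2.68), ANXA8L1 (2.48), IRX3 (2.31), SELE (2.28), SPP2 (2.16), ECM1 (1.68), PHKG2 (0.75) and CTSD (0.62). Lower were GPAT3 (-3.45), HSPB3 (-2.997), SFRP2 (-2.45), NNAT (-2.42), TGM2 (-1.99), DZIP3 (-1.87) and GK (-1.34). CXCL14, IRX3, SELE and HSPB3 kept both calls in all 9 fits with 1 array left out. SPP2 kept them in 8, its adjusted p being 0.0564 without abdominal replicate 3. SFRP2, GK and TGM2 kept them in 5, CYP2B6, DZIP3 and PHKG2 in 4, ECM1 and CTSD in 2, GPAT3 and NNAT in 1 and ANXA8L1 in 0. Mean levels of CXCL14, IRX3, SPP2, SELE and ANXA8L1 were lower in abdominal fat than in muscle and higher in subcutaneous fat than in muscle.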

How the results depend on the processing

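The counts of 11299 called, 5913 higher and 5386 lower probe sets stayed within 1.5 times on 6 arrays alone, with array weights, under other priors and scalings, with 1 array left out (range 9470 to 12228, 5217 to 6082 and 4253 to 6146) and with the title number as a replicate block (11116, 5997 and 5119). Restricting the probe sets or the threshold lowered them. Probe sets with 1 symbol gave 7013 calls, 3538 higher and 3475 lower, and a log2 difference of at least 1 gave 5472, 3437 and 2035. Calls lower in fat numbered 3315 with values over 6 on at least 3 of the 6 arrays and 3441 at an adjusted p of 0.01. The 245 also called between depots became 98 with the replicate block (among the genes named for both calls, ANXA8L1, CTSD, CYP2B6, DZIP3, ECM1 and PHKG2 had adjusted p between depots of 0.0538 to 0.195 there) and 48 to 366 with 1 array left out. The title numbers were not taken as pairing the samples, since the labels do not say what they mark. Deviations of same-numbered muscle and subcutaneous arrays correlated at 0.04, 0.15 and 0.09, and those of other combinations at -0.16 to 0.08. Each muscle array correlated best with its same-numbered array, while subcutaneous replicate 1 correlated better with muscle replicate 3 (0.08). Whether same-numbered arrays came from 1 animal was not settled. Among 364 called named genes, 331 kept their call and direction with each array left out. On the probe set brightest over all 9 arrays CKM differed by 1.18, MYH7 by 0.445, COX8B by -0.471, NDUFA5 by -0.687 and TPM2 by -4.05. MYL6, not called, turned to -0.055 with array weights and -0.081 with arrays centred and ranged from -0.061 to 0.186 with 1 array left out (-0.027 without muscle replicate 3), and SLC2A1, not called, ranged from -0.470 to 0.082. List medians turned for lipolytic receptors (-0.016, all probe sets averaged) and for TGF-beta and BMP signalling (0.00, centred). Over brighter members they turned for Schwann cells (0.69) and mesothelium (1.87), the latter being the value of KRT19 alone. With arrays centred the small medians of skin (-0.122), clock (-0.061), immediate-early (-0.075), ribosome (-0.059), antioxidant (-0.104) and reference genes (-0.038) turned too, and quantile normalization turned those of lymphocytes (0.065), clock (-0.154) and immediate-early genes (-0.007). Over brighter members those of lymphocytes (0.921, the value of CD247), retinoid and steroid (0.256), clock (-0.129) and antioxidant genes (-0.016) turned. Array weights turned that of antioxidant genes too (-0.030). With 1 array left out the medians of skin, clock, immediate-early, ribosomal and antioxidant genes turned in some fits. Small counts not given with their lists also moved: members lower became 2 for cytoskeleton, lymphocyte and mesothelial genes without muscle replicate 3, 2 for droplet genes without muscle replicate 1 and 1 for matrix processing without subcutaneous replicate 1, and members higher became 2 for clock genes without muscle replicate 3, 2 for Schwann genes and 1 for junction genes without abdominal replicate 2. Except where fewer probe sets or arrays enter, the cause was not tested. Near background, sizes are limited by signal.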
